A study of Homo sapiens with 12 samples.

Results

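The 36 genes described here encode the enzymes that make cholesterol and fatty acids and the proteins that control this synthesis or move cholesterol in and out of the cell. They were chosen by gene symbol for their known roles, with no measured value in the rule but with earlier results of these data known, so that their shares beside those of all genes are a description. All 36 were found among the 27685 genes of the deposited table and were among the 15769 genes tested. They comprise 8 genes of the mevalonate and isoprenoid steps, 11 of the steps from squalene to cholesterol, 5 of the control of SREBPs (sterol regulatory element binding proteins), 7 of fatty acid synthesis and desaturation and 5 of sterol movement.

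The cells were U251, a long established human line grown from a glioblastoma, with a short hairpin RNA stably expressed in them. In one set, called shINCA1, the hairpin was directed at the long noncoding RNA INCA1, and in the other, called shCTRL, it was a control hairpin. Cells of each set were taken after 24 hours of interferon gamma (IFNγ) or without it, which gave 4 groups: shINCA1 with IFNγ, shINCA1 without IFNγ, shCTRL with IFNγ and shCTRL without IFNγ, with 3 RNA-seq libraries each. All 12 libraries therefore came from cells that had been given a hairpin. The labels give the same range of passages for all 12 and not the passage of each library, so whether the groups differed in passage is not known. As far as the labels tell, each hairpin stands for 1 cell line, so that a difference between the hairpins cannot be told apart from a difference between lines. Whether the 3 libraries of a group stem from separate cultures is not stated in the labels, and the p-values may measure technical spread only. The targeted RNA could not be followed, because the INCA1 entry of the table shares its symbol with a protein-coding gene on chromosome 17.

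Cells build cholesterol from acetyl-CoA through mevalonate and isoprenoid units, which are joined to squalene, closed to the ring of lanosterol and trimmed to the final sterol. Fatty acids are built from the same acetyl-CoA. The SREBPs switch on most of these genes when sterols run low: SCAP carries them out of the endoplasmic reticulum, and the INSIG proteins hold them back when sterols are plentiful. In the brain cholesterol is made locally, with astrocytes as a main source, since lipoproteins of the blood do not cross the blood-brain barrier.

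Libraries held 46525032 to 66242859 estimated counts, with 16724 to 17216 genes above 0. Levels are given below as CPM, that is, counts relative to library size and scaled with TMM factors, which assume most genes do not change. Tests compare these levels between groups. Because CPM is not corrected for length, it does not rank genes by amount of RNA. Sums over several genes mostly reflect the genes with the most counts. Differences are log2 values ± SE from edgeR's quasi-likelihood test on all 12 libraries, with Benjamini-Hochberg adjusted p-values over the 15769 genes and a threshold of 0.05. The lines differed widely: between shINCA1 and shCTRL cells 58.9% of all genes tested passed this threshold with IFNγ and 56.9% without it. The glial and glioma markers were present in every group, with summed levels of 2847 to 2898 CPM in shINCA1 cells with IFNγ, 2798 to 2835 CPM in shINCA1 cells without it, 3339 to 3442 CPM in shCTRL cells with IFNγ and 3376 to 3482 CPM in shCTRL cells without it, and none of the 6 was at 0. Most of these counts fell on VIM and CD44, while GFAP, which defines astrocytes, was near 0 at 0.157 to 1.76 CPM in any library and S100B was at 0.192 to 2.95 CPM. All 6 differed between the lines in both conditions: CD44 was higher in shINCA1 cells and 5 were lower, of which GFAP, S100B and NES by at least 2-fold. NES averaged 28.9 ± 1.93 CPM in shINCA1 cells with IFNγ and 33.5 ± 1.84 CPM in shINCA1 cells without it, against 116 ± 3.24 CPM in shCTRL cells with IFNγ and 137 ± 5.59 CPM in shCTRL cells without it (SD, n = 3). The part of these differences in the members' values was not tested.

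Promoters are shown for 5 members whose values are described below, because SREBPs act at promoters together with NF-Y, a factor that binds CCAAT. Each window is RefSeq sequence of build GRCh38.p14 from 250 bases before to 50 bases after the annotated start, written 5′ to 3′ on the strand of the gene. Capitals mark CCAAT or its reverse complement ATTGG and, in SREBF2, the sterol regulatory element TCACCCCAC.
HMGCS1, chr5:43313363-43313662, minus strand: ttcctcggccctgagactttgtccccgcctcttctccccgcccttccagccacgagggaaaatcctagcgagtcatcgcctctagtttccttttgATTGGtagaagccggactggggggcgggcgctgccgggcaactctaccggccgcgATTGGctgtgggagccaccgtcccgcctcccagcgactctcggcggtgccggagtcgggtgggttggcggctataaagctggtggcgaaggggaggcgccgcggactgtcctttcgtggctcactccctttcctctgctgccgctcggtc
MSMO1, chr4:165327419-165327718, plus strand: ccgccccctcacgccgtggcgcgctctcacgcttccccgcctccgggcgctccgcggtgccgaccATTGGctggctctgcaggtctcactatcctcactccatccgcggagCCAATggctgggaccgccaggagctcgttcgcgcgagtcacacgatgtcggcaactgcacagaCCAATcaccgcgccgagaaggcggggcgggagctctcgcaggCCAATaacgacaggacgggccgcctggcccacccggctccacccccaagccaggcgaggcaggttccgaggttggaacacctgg
STARD4, chr5:111512486-111512785, minus strand: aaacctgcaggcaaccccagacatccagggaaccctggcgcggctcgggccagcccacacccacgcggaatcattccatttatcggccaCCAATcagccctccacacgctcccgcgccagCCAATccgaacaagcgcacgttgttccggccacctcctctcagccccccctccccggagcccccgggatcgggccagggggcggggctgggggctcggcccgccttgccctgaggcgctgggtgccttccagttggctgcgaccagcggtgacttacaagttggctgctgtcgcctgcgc
INSIG1, chr7:155297628-155297927, plus strand: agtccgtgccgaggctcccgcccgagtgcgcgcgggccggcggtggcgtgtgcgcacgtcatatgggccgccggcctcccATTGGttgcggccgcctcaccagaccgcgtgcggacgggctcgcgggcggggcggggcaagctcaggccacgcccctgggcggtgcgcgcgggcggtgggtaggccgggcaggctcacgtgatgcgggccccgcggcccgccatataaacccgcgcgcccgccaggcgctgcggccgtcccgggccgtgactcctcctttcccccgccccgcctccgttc
SREBF2, chr22:41832855-41833154, plus strand: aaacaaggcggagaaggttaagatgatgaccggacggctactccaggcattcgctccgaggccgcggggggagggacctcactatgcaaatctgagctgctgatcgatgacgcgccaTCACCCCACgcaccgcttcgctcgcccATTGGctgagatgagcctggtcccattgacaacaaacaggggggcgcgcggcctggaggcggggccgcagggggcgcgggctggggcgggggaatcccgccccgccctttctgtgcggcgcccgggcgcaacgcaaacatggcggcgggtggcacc
The HMGCS1 window is the first of 2 that RefSeq gives. Windows were matched for 31 members, and not for ACAT2, FDFT1, SQLE, FASN and ABCG1. On either strand CCAAT was found in 22 of these 31 members (71.0%), against 39.7% of all 27305 genes with a window. The 27305 are not limited to the 15769 genes tested, while all members were tested, so the background is unlike the members. A gene counted if any of its windows held the motif. The 5 members shown were all lower in shINCA1 than in shCTRL cells, but the 22 with CCAAT were not all lower. Among them MVD, GGPS1, SC5D, DHCR7 and EBP were called in neither condition, and TM7SF2 and ACLY were higher. MSMO1 held 4 copies, at 185, 139, 76 and 34 bases before the start. The element TCACCCCAC was found in 1 member, SREBF2 (3.23%), 133 bases before the start, against 0.535% of all genes. With any base at 1 inner letter (TCACNCCAC, which contains the first motif) it was again found in SREBF2 alone among members, against 1.39% of all genes. The pattern TTCNNNGAA, which STAT proteins bind, was found in 1 member, GGPS1, against 9.38% of all genes. These matches describe letters in the windows and are not measured binding.

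Much of the sterol pathway was lower in shINCA1 than in shCTRL cells, in both conditions. With IFNγ, 20 of the 36 members were lower, against 30.2% of all genes tested, and 8 were higher, against 28.7%. Without IFNγ, 20 were again lower, against 29.5% of all genes, and 5 were higher, against 27.4%. Of the members called without IFNγ, 19 of the 20 lower and all 5 of the higher ones were also called in that direction with IFNγ. The median difference of the members was -0.20 with IFNγ and -0.18 without it, against 0.00 and -0.01 over all genes tested, and without HSD17B7, which was at 0 in shINCA1 cells, the members' medians were -0.16 and -0.15. In a bulk sample, fewer cells that express a gene and less of its RNA in each cell cannot be told apart.

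**Figure D1:**
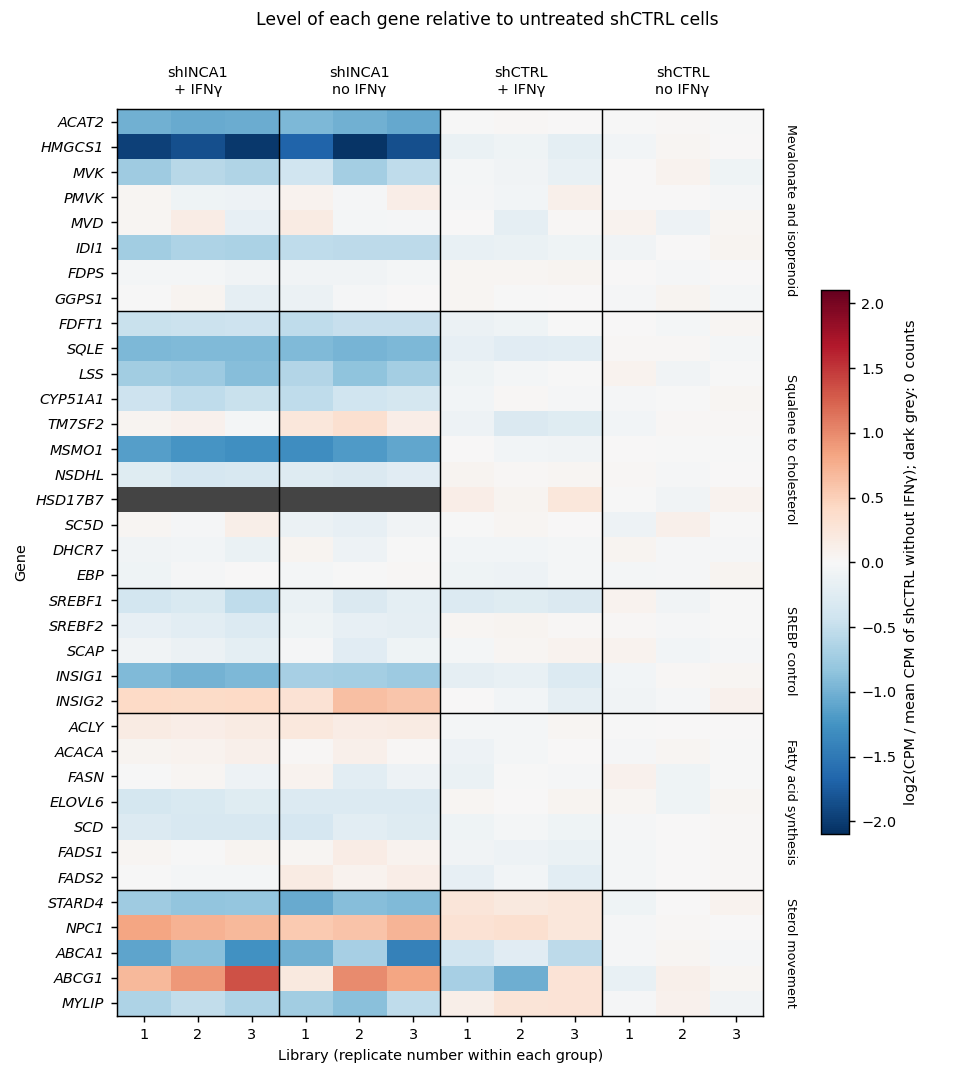
Level of each of the 36 members (rows) in each of the 12 libraries (columns), as log2 of CPM relative to the mean of that gene over the 3 shCTRL libraries without IFNγ, with blue for lower and red for higher. The shINCA1 libraries are blue for HMGCS1, MSMO1, ACAT2, SQLE and STARD4 and red for NPC1 and INSIG2, and HSD17B7 is at 0 counts in each of them.

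By role the counts were as follows, and differences between the roles were not tested. Among the 8 mevalonate and isoprenoid genes 5 were lower and none higher in both conditions (none also at an unadjusted p under 0.05 by edgeR, and by DESeq2 and limma-voom), with medians of -0.32 with IFNγ and -0.30 without it. Among the 11 genes from squalene to cholesterol 7 were lower and 1 higher in both conditions, with medians of -0.38 and -0.44, or -0.37 and -0.35 when HSD17B7 is left out. Of the 5 SREBP control genes 3 were lower and 1 higher in both conditions, with medians of -0.16 and -0.15. Of the 5 sterol movement genes 3 were lower in both conditions, with medians of -0.69 and -0.71, while 2 were higher with IFNγ and 1 without it. Of the 7 fatty acid genes 2 were lower in both conditions, while 4 were higher with IFNγ and 2 without it, with medians of 0.12 and 0.05. Of all genes 30.2% were lower and 28.7% higher with IFNγ, and 29.5% lower and 27.4% higher without it, and the fatty acid counts lie near these shares except for those higher with IFNγ.

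**Figure D2:**
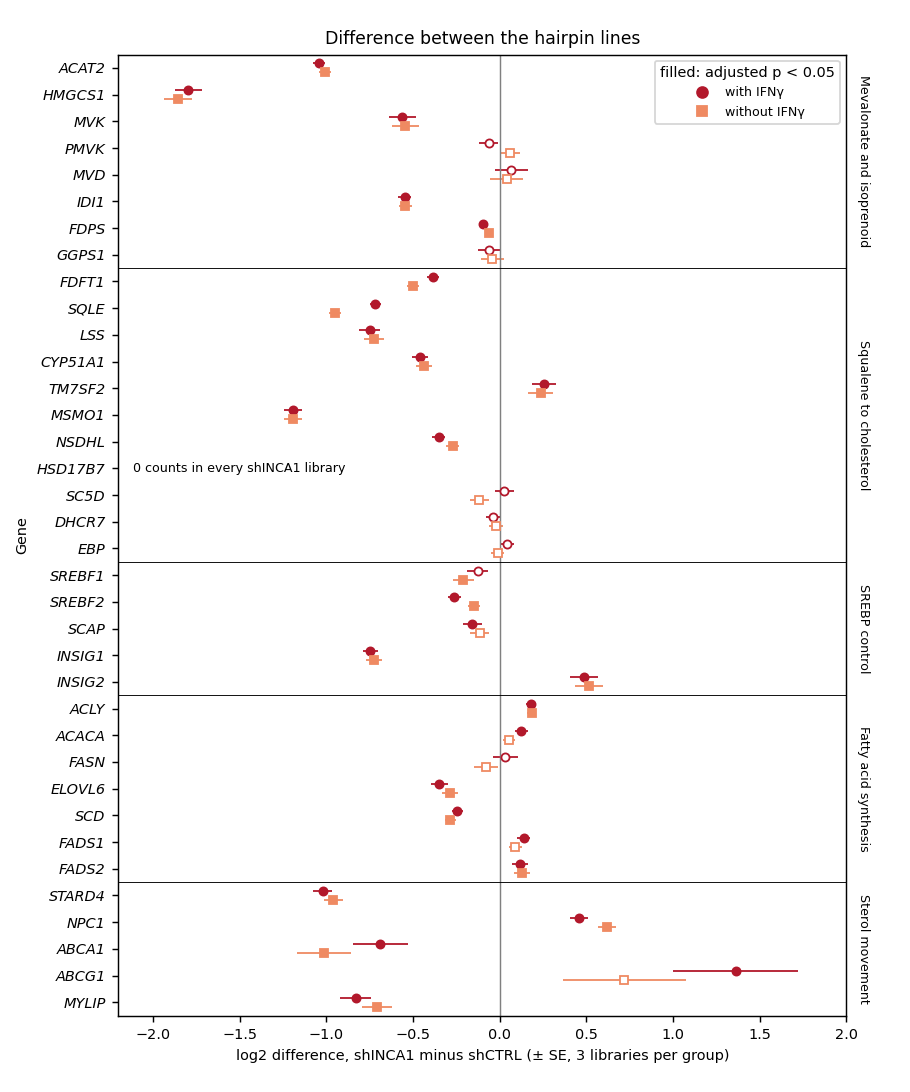
The log2 difference of each member between shINCA1 and shCTRL cells (horizontal axis, ± SE from the edgeR fit, 3 libraries a group), with IFNγ as circles and without it as squares, filled where the adjusted p was under 0.05. HMGCS1 lies farthest to the left of the members drawn, at -1.80 with IFNγ and -1.86 without it, and the fatty acid genes lie between -0.35 and 0.18.

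Among members with counts in every library the largest difference was at HMGCS1, near the start of the route. HMGCS1 makes HMG-CoA, the precursor of mevalonate. HMGCS1 measured 23.4, 25.5 and 22.6 CPM in shINCA1 cells with IFNγ and 28.5, 22.1 and 25.3 CPM in shINCA1 cells without it, against 82.7, 85.8 and 79.7 CPM in shCTRL cells with IFNγ and 88.4, 93.7 and 92.6 CPM in shCTRL cells without it. Every shINCA1 library lay far below every shCTRL library. The log2 difference was -1.80 ± 0.08 with IFNγ (edgeR's quasi-likelihood test, adjusted p = 2.99e-09) and -1.86 ± 0.08 without it (adjusted p = 2.31e-09). ACAT2, the thiolase that joins acetyl-CoA units just before HMGCS1, was also lower. ACAT2 measured 80.2, 77.0 and 78.3 CPM in shINCA1 cells with IFNγ and 83.6, 79.6 and 76.4 CPM in shINCA1 cells without it, against 161, 163 and 162 CPM in shCTRL cells with IFNγ and 159, 163 and 159.7 CPM in shCTRL cells without it. No shINCA1 library reached the level of any shCTRL library, and the log2 difference was -1.04 ± 0.03 with IFNγ and -1.01 ± 0.03 without it.

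Further along, IDI1, which turns isopentenyl diphosphate into its isomer, was lower by a smaller step. IDI1 measured 46.7, 49.2 and 48.8 CPM in shINCA1 cells with IFNγ and 53.3, 52.9 and 53.1 CPM in shINCA1 cells without it, against 69.1, 70.0 and 72.7 CPM in shCTRL cells with IFNγ and 73.5, 78.0 and 80.7 CPM in shCTRL cells without it. The lines did not overlap, and the log2 difference was -0.55 ± 0.04 with IFNγ and -0.54 ± 0.04 without it. MVK, which phosphorylates mevalonate, differed by -0.56 ± 0.08 with IFNγ and -0.55 ± 0.08 without it. FDPS, the farnesyl diphosphate synthase, was lower by little (-0.10 ± 0.02 with IFNγ and -0.06 ± 0.02 without it), and the call without IFNγ was lost when library 3 of shCTRL without IFNγ, libraries 1 or 2 of shINCA1 without IFNγ or library 3 of shINCA1 with IFNγ was left out (adjusted p 0.0567 to 0.163 by edgeR). That call was also lost with DESeq2 size factors, upper-quartile factors, no filter, a filter of 5 CPM in 3 samples and only the 2 groups compared (adjusted p 0.0575 to 0.224). PMVK, MVD and GGPS1, which encode the next kinase, the decarboxylase and the geranylgeranyl diphosphate synthase, passed the threshold in neither condition. Their 95% intervals with IFNγ were -0.19 to 0.06, -0.15 to 0.29 and -0.21 to 0.09, and without it -0.06 to 0.18, -0.18 to 0.26 and -0.20 to 0.11.

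Later in the pathway MSMO1, the oxidase that takes methyl groups off the sterol ring, was lower by more than 2-fold. MSMO1 measured 28.7, 27.2 and 26.2 CPM in shINCA1 cells with IFNγ and 25.9, 28.3 and 30.1 CPM in shINCA1 cells without it, against 64.4, 62.1 and 61.4 CPM in shCTRL cells with IFNγ and 64.8, 63.8 and 64.0 CPM in shCTRL cells without it. The libraries of each line fell into a narrow band with IFNγ and without it, and the log2 difference was -1.19 ± 0.05 with IFNγ (edgeR, adjusted p = 3.14e-09) and -1.19 ± 0.05 without it (adjusted p = 3.12e-09). SQLE, the squalene epoxidase and one of the rate-limiting enzymes of the route, stood lower as well. SQLE measured 41.9, 42.1 and 42.1 CPM in shINCA1 cells with IFNγ and 42.2, 40.6 and 41.7 CPM in shINCA1 cells without it, against 70.9, 67.7 and 68.8 CPM in shCTRL cells with IFNγ and 81.2, 81.5 and 77.8 CPM in shCTRL cells without it. All 6 shINCA1 libraries lay close together and below the shCTRL libraries, and the difference was -0.72 ± 0.03 with IFNγ and -0.95 ± 0.03 without it.

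LSS, which closes squalene epoxide to lanosterol, was lower by a similar amount. LSS measured 122, 119.8 and 109 CPM in shINCA1 cells with IFNγ and 132, 113 and 123 CPM in shINCA1 cells without it, against 191, 197 and 202 CPM in shCTRL cells with IFNγ and 213, 193 and 202 CPM in shCTRL cells without it. The lines did not overlap, and the log2 difference was -0.75 ± 0.06 with IFNγ and -0.73 ± 0.06 without it. FDFT1 measured 93.1, 94.0 and 94.998 CPM in shINCA1 cells with IFNγ and 89.5, 92.1 and 92.1 CPM in shINCA1 cells without it, against 118, 121 and 129 CPM in shCTRL cells with IFNγ and 129, 125 and 132 CPM in shCTRL cells without it. This gene encodes squalene synthase, and its log2 difference was -0.38 ± 0.04 with IFNγ and -0.50 ± 0.04 without it, again with no overlap between the lines. The CYP51A1 libraries of shINCA1 cells were at 67.3, 62.7 and 66.2 CPM with IFNγ and at 63.1, 67.8 and 70.8 CPM without it, against 87.1, 93.1 and 89.8 CPM with and 89.4, 90.3 and 93.5 CPM without IFNγ in shCTRL cells. CYP51A1 is the lanosterol demethylase, and its log2 difference was -0.46 ± 0.05 with IFNγ and -0.44 ± 0.05 without it. NSDHL, the sterol dehydrogenase that acts with MSMO1, differed by -0.35 ± 0.04 with IFNγ and -0.27 ± 0.04 without it.

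Other late enzymes did not follow. TM7SF2, a sterol reductase, was higher in shINCA1 cells by 0.26 ± 0.07 with IFNγ and 0.24 ± 0.07 without it, and the call without IFNγ was lost without library 1 of shCTRL without IFNγ (adjusted p = 0.0569 by edgeR). DHCR7, which catalyses a last reduction to cholesterol, and EBP, the sterol isomerase, passed the threshold in neither condition, with 95% intervals of -0.13 to 0.06 and -0.04 to 0.13 with IFNγ and -0.12 to 0.07 and -0.10 to 0.08 without it. SC5D, a sterol desaturase, did not pass it either, at 0.03 ± 0.06 with IFNγ and -0.12 ± 0.06 without it, although it was lower without IFNγ once library 1 of shCTRL without IFNγ was left out (-0.18, adjusted p = 0.0155 by edgeR).

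HSD17B7, the sterol ketone reductase that works with MSMO1 and NSDHL, had 0 counts in all 6 shINCA1 libraries. In shCTRL cells it measured 7.53, 7.10 and 8.01 CPM with IFNγ and 6.79, 6.49 and 7.14 CPM without it. Taken against a floor of 3 counts in each library, the level in shINCA1 cells was at least 134.5-fold lower with IFNγ and at least 139.9-fold lower without it. A pseudogene entry of similar sequence, HSD17B7P2, was also lower, at 0 to 0.183 CPM in shINCA1 libraries and 0.360 to 0.768 CPM in shCTRL libraries. The lower values were thus in both entries. How counting divided reads between such copies is not stated, and its part in the value of HSD17B7 was not tested. The cause of the zeros was not tested.

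**Figure D3:**
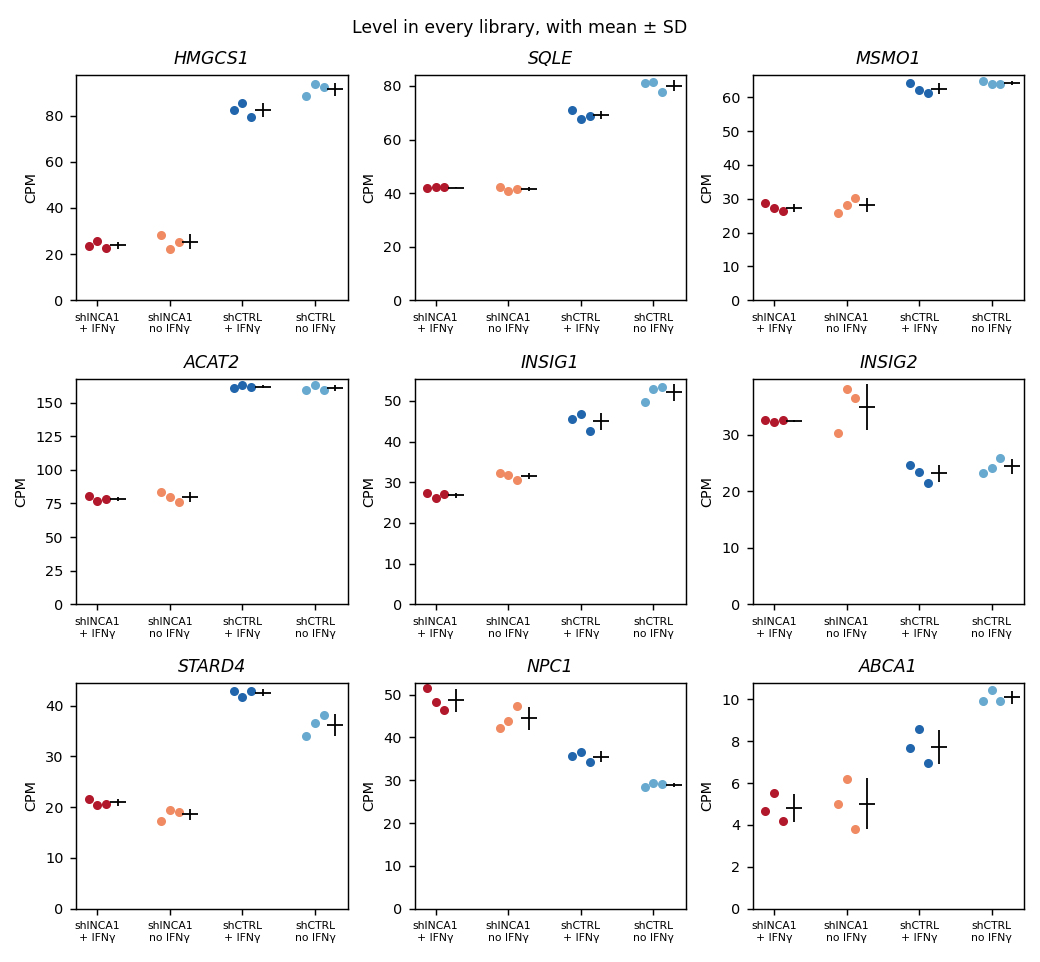
CPM of selected members in each library (points) with the mean (horizontal line) and SD (vertical line) of the 3 libraries of each group, shINCA1 groups left of shCTRL groups. For HMGCS1, MSMO1, SQLE and INSIG1 the shINCA1 points all lie below the shCTRL points, and for NPC1 they lie above them.

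Of the genes that control SREBPs, the 2 INSIG genes differed in opposite directions between the lines. INSIG1 is itself a classical SREBP target, while INSIG2 is not driven in that way. INSIG1 measured 27.3, 26.2 and 27.0 CPM in shINCA1 cells with IFNγ and 32.2, 31.7 and 30.7 CPM in shINCA1 cells without it, against 45.5, 46.7 and 42.7 CPM in shCTRL cells with IFNγ and 49.8, 53.0 and 53.5 CPM in shCTRL cells without it. The shINCA1 libraries lay below the shCTRL libraries in either condition, and the log2 difference was -0.75 ± 0.04 with IFNγ (edgeR, adjusted p = 4.15e-08) and -0.72 ± 0.04 without it (adjusted p = 5.44e-08). INSIG2 was higher in shINCA1 cells, by 0.49 ± 0.08 with IFNγ and 0.52 ± 0.08 without it.

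The SREBP genes themselves differed little. SREBF2, whose product mainly drives sterol genes, was lower, with a log2 difference of -0.26 ± 0.04 with IFNγ and -0.15 ± 0.04 without it. SREBF1, whose product mainly drives fatty acid genes, was lower without IFNγ (-0.21 ± 0.06, edgeR adjusted p = 0.00990) and did not pass the threshold with it (-0.13 ± 0.06, adjusted p = 0.0885), where it passed without library 2 of shINCA1 with IFNγ (adjusted p = 0.0350) and by the DESeq2 Wald test (adjusted p = 0.0488). SCAP differed by -0.16 ± 0.06 with IFNγ (adjusted p = 0.0327) and -0.12 ± 0.06 without it (adjusted p = 0.105, not past the threshold). Its call with IFNγ was lost without library 2 or 3 of either line with IFNγ (adjusted p 0.0659 to 0.105) and with upper-quartile factors (0.0834), and without IFNγ it passed once library 1 of shINCA1 without IFNγ was left out (adjusted p = 0.0334 by edgeR).

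The 7 fatty acid genes differed between the lines by log2 values of only -0.35 to 0.18. ACLY, which supplies acetyl-CoA from citrate, was higher in shINCA1 cells by 0.18 ± 0.03 with IFNγ and 0.18 ± 0.03 without it. ELOVL6, which elongates palmitate, was lower, with a log2 difference of -0.35 ± 0.05 with IFNγ and -0.29 ± 0.05 without it. SCD, the main desaturase of saturated fatty acids, was lower, with a log2 difference of -0.24 ± 0.03 with IFNγ and -0.28 ± 0.03 without it. FASN, the fatty acid synthase, passed the threshold in neither condition, with 95% intervals of -0.13 to 0.20 with IFNγ and -0.24 to 0.08 without it, although it was lower without IFNγ once library 1 of shINCA1 without IFNγ was left out (-0.17, adjusted p = 0.0400 by edgeR).

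The remaining fatty acid calls were small. ACACA, the acetyl-CoA carboxylase, was higher with IFNγ by 0.13 ± 0.04, a call lost without library 3 of shINCA1 with IFNγ (adjusted p = 0.0514 by edgeR), and did not pass the threshold without it (0.05 ± 0.04). FADS1 and FADS2 encode the desaturases of polyunsaturated fatty acids. FADS1 was higher with IFNγ by 0.14 ± 0.04 and just missed the threshold without it (0.09 ± 0.04, adjusted p = 0.0550), which it passed without library 1 of shINCA1 without IFNγ (adjusted p = 0.0345 by edgeR) and with upper-quartile factors, the filter of 5 CPM, the DESeq2 Wald test and limma-voom (adjusted p 0.0170 to 0.0447). FADS2 was higher by 0.12 ± 0.05 with IFNγ and 0.13 ± 0.05 without it, but neither call was stable. With IFNγ it held only on leaving out library 1 of shCTRL without IFNγ, library 2 of shCTRL with IFNγ or library 1 or 2 of shINCA1 without IFNγ, and was lost without any of the other 8 (adjusted p 0.0516 to 0.183 by edgeR). It was also lost with DESeq2 size factors, no filter, the DESeq2 Wald test, limma-voom, a replicate block and only the 2 groups compared (adjusted p 0.0509 to 0.0911). Without IFNγ it was lost on leaving out any shCTRL library without IFNγ, library 1 of shCTRL with IFNγ, library 1 or 3 of shINCA1 without IFNγ or library 2 of shINCA1 with IFNγ (adjusted p 0.0509 to 0.120), and with a replicate block (0.0517). The summed level of the 7 genes was 1716 ± 14.4 CPM in shINCA1 cells with IFNγ, 1724 ± 25.8 CPM in shINCA1 cells without it, 1697 ± 38.7 CPM in shCTRL cells with IFNγ and 1761 ± 18.6 CPM in shCTRL cells without it (SD, n = 3). Most of this sum came from ACLY, FASN and SCD, with means of 538, 417 and 414 CPM in shINCA1 cells with IFNγ. For the 11 genes from squalene to cholesterol the sums were 555 ± 7.49 and 563 ± 12.6 CPM in shINCA1 cells, with and without IFNγ, against 765 ± 10.3 and 796 ± 11.8 CPM in shCTRL cells (SD, n = 3).

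Genes of sterol movement differed in both directions. STARD4, a carrier of cholesterol between membranes and an SREBP target, was lower in shINCA1 cells. STARD4 measured 21.7, 20.5 and 20.7 CPM in shINCA1 cells with IFNγ and 17.4, 19.4 and 19.0 CPM in shINCA1 cells without it, against 43.0, 41.8 and 42.8 CPM in shCTRL cells with IFNγ and 33.9, 36.5 and 38.1 CPM in shCTRL cells without it. The lines did not overlap, and the log2 difference was -1.02 ± 0.05 with IFNγ and -0.96 ± 0.06 without it. NPC1, which lets cholesterol out of lysosomes, was higher. NPC1 measured 51.6, 48.2 and 46.4 CPM in shINCA1 cells with IFNγ and 42.2, 43.9 and 47.4 CPM in shINCA1 cells without it, against 35.7, 36.6 and 34.2 CPM in shCTRL cells with IFNγ and 28.4, 29.4 and 29.1 CPM in shCTRL cells without it. Every shINCA1 library lay above every shCTRL library of the same condition, and the log2 difference was 0.46 ± 0.05 with IFNγ and 0.62 ± 0.05 without it.

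ABCA1, ABCG1 and MYLIP are targets of the liver X receptors, which respond to excess sterol, and they differed between the lines in both directions. ABCA1 loads cholesterol onto apolipoproteins. ABCA1 measured 4.67, 5.53 and 4.20 CPM in shINCA1 cells with IFNγ and 5.02, 6.22 and 3.80 CPM in shINCA1 cells without it, against 7.66, 8.57 and 6.94 CPM in shCTRL cells with IFNγ and 9.94, 10.5 and 9.93 CPM in shCTRL cells without it. The lines did not overlap within a condition, and the log2 difference was -0.69 ± 0.16 with IFNγ and -1.01 ± 0.16 without it. MYLIP encodes a ubiquitin ligase that removes lipoprotein receptors. MYLIP measured 10.8, 11.8 and 10.8 CPM in shINCA1 cells with IFNγ and 10.2, 9.23 and 11.7 CPM in shINCA1 cells without it, against 18.4, 20.4 and 20.6 CPM in shCTRL cells with IFNγ and 16.7, 18.1 and 16.1 CPM in shCTRL cells without it. The lines did not overlap, and the log2 difference was -0.83 ± 0.09 with IFNγ and -0.71 ± 0.09 without it. ABCG1, which exports sterol to lipoproteins, rested on 17 to 78 estimated counts a library, and on fewer fragments if, as the low values of the table may mean, 1 fragment stands for about 3 counts. ABCG1 measured 0.924, 1.08 and 1.44 CPM in shINCA1 cells with IFNγ and 0.662, 1.15 and 1.02 CPM in shINCA1 cells without it, against 0.353, 0.282 and 0.698 CPM in shCTRL cells with IFNγ and 0.514, 0.615 and 0.593 CPM in shCTRL cells without it. It was higher with IFNγ by 1.36 ± 0.36 (edgeR, adjusted p = 0.00629) and did not pass the threshold without it (0.72 ± 0.35, adjusted p = 0.106), though the libraries of the lines did not overlap in either condition.

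Differences of at least 2-fold were counted in each direction. Lower by that much with IFNγ were 5 of the 36 members, namely HMGCS1, MSMO1, ACAT2, STARD4 and HSD17B7, against 6.17% of all genes tested. Without IFNγ there were 5 as well, namely HMGCS1, MSMO1, ACAT2, ABCA1 and HSD17B7, against 6.09% of all genes. ABCG1 with IFNγ was the 1 member higher by at least 2-fold in that condition, against 6.96% of all genes. Without IFNγ 0 of the 36 members were higher by that much, against 1015 of all 15769 genes tested. With IFNγ the libraries of the lines did not overlap for 29 members, against 66.5% of all genes tested. Of these, 21 had the shINCA1 libraries below the others, against 33.8% of all genes, and 8 above them, against 32.7%. Without IFNγ there was no overlap for 27 members, against 62.8% of all genes, with 20 below, against 32.4%, and 7 above, against 30.4%.

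Some members lie where neighbouring genes differed as well, which was seen by taking up to 10 tested genes on each side in GRCh38 order. Around MYLIP on chromosome 6 the neighbours had a median difference of -0.54 with IFNγ and -0.65 without it, and without IFNγ 19 of 20 were lower. For ACAT2, elsewhere on chromosome 6, the neighbours' medians were -0.68 and -0.67, and for MSMO1 on chromosome 4 they were -0.41 and -0.43. Without IFNγ 15 of 20 neighbours were lower for ACAT2 and 14 of 20 for MSMO1. Around SCAP on chromosome 3 the neighbours' medians were -0.28 and -0.29, and around IDI1 on chromosome 10 they were -0.26 and -0.23. Without IFNγ 13 of 20 neighbours were lower for SCAP and 9 of 15 for IDI1. SCAP itself differed by -0.16 and -0.12, which is less than its neighbours' medians. Of all genes tested 29.5% were lower in that comparison. Around MVD on chromosome 16, which did not pass the threshold itself, the neighbours' medians were 0.52 and 0.57. The neighbours of HMGCS1 had medians of 0.00 and -0.02, those of SQLE -0.08 and -0.04, those of INSIG1 0.16 and 0.12 and those of STARD4 -0.11 and -0.18. Without IFNγ 5 of 20 neighbours were lower for HMGCS1, 8 of 20 for SQLE, 2 of 20 for INSIG1 and 10 of 20 for STARD4. Whether such regional differences have a part in the members' values was not tested.

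**Figure D4:**
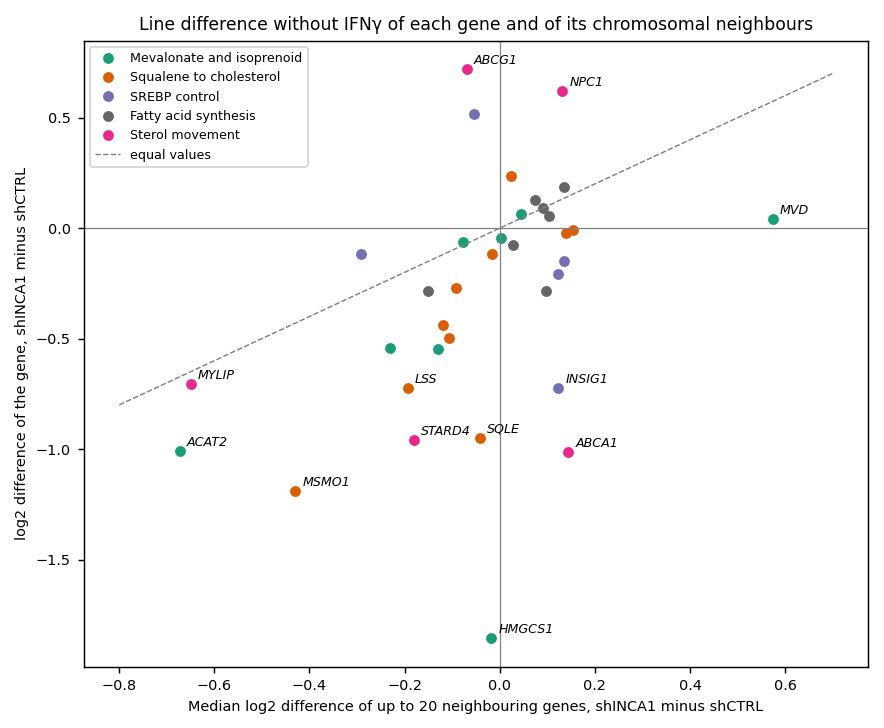
The log2 difference of each member between the lines without IFNγ (vertical axis) against the median difference of up to 20 neighbouring tested genes (horizontal axis). MYLIP lies near its neighbours (-0.71 against a median of -0.65), while HMGCS1 lies far below them (-1.86 against -0.02).

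Genes of growth and of other cell types were compared between the lines as well. The 6 growth genes summed to 2095 to 2241 CPM in shINCA1 cells with IFNγ and 2160 to 2176 CPM in shINCA1 cells without it, against 2578 to 2667 CPM in shCTRL cells with IFNγ and 2437 to 2664 CPM in shCTRL cells without it, and 3 of them (MKI67, CDK1 and CCNB1) were lower in both conditions while MCM2 was higher. The 4 epithelial markers summed to 267.2 to 268 CPM and 239 to 262 CPM in shINCA1 cells with and without IFNγ, against 89.7 to 94.5 CPM and 93.1 to 96.2 CPM in shCTRL cells, and the 2 that could be tested, KRT18 and KRT8, were both higher. The defining epithelial markers were near 0: EPCAM reached at most 0.199 CPM and CDH1 at most 0.167 CPM in any library, and EPCAM was at 0 in shINCA1 cells with IFNγ and CDH1 at 0 in shCTRL cells with IFNγ. The immune markers summed to at most 2.51 CPM in any library, the endothelial ones to at most 17.2 CPM and the hepatic and adipose ones to at most 0.316 CPM, and CD3E, APOB and ADIPOQ were at 0 in all 12 libraries. Of 3 endothelial markers tested 2 were higher in shINCA1 cells with IFNγ and 3 without it, with KDR at 15.05 ± 0.823 and 7.82 ± 0.704 CPM in shINCA1 cells with and without IFNγ, against 9.14 ± 0.540 and 6.55 ± 0.374 CPM in shCTRL cells (SD, n = 3). PECAM1, a defining endothelial marker, was at 0 in 11 of 12 libraries. Of the immune markers 1 of 2 tested was higher in either condition (CSF1R), and of the hepatic and adipose ones the 1 tested (PLIN1). Of all genes tested 58.9% were called between the lines with IFNγ and 56.9% without it. The growth genes called are 66.7% of their list in either condition, near that share. The other lists of this paragraph hold only 1 to 3 tested genes each. The part of these differences in the members' values was not tested.

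Of the 36 members 2 (5.56%) were called for IFNγ in shINCA1 cells, against 9.08% of all genes tested. Both were lower after IFNγ by edgeR's quasi-likelihood test, against 2.95% of all genes, and 0 were higher, against 6.13%. Counts this small on 36 genes are near these shares. At an unadjusted p under 0.05 the counts were 5 lower and 3 higher, and DESeq2 and limma-voom also called 0 members higher. The IFNγ libraries lay apart from the others for 8 members, against 24.9% of all genes, with 5 below (11.4% of all genes) and 3 above (13.5%). The median response of the members was -0.03, against 0.00 over all genes. INSIG1 measured 27.3, 26.2 and 27.0 CPM with IFNγ, against 32.2, 31.7 and 30.7 CPM without it. Its libraries did not overlap, and it fell by 0.23 ± 0.04 on the log2 scale (edgeR, adjusted p = 0.00530). IDI1 measured 46.7, 49.2 and 48.8 CPM with IFNγ, against 53.3, 52.9 and 53.1 CPM without it. It fell by 0.14 ± 0.04 (edgeR, adjusted p = 0.0461), a call that held on leaving out library 1 or 3 of shCTRL without IFNγ and was lost on leaving out any of the other 10 libraries (adjusted p 0.0513 to 0.165), by limma-voom (0.0576) and with only the 2 groups compared (0.0649).

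In shCTRL cells 7 members (19.4%) were called, against 17.2% of all genes tested. After IFNγ 5 were lower, against 7.51% of all genes, and 2 were higher, against 9.72%, with a median of -0.05 against -0.01 over all genes. The libraries did not overlap for 16 members, against 33.4% of all genes, with 12 below (16.9% of all genes) and 4 above (16.5%). With upper-quartile factors 10 members were lower in shCTRL cells and 4 in shINCA1 cells. With those factors 1201 of all genes were called higher and 1970 lower in shCTRL cells, where TMM gave 1532 and 1184, and in shINCA1 cells 815 and 733, where TMM gave 967 and 465. In shCTRL cells TM7SF2, SCD, FADS1 and ABCA1 were not called as the test was run, and each was called lower on leaving out some single library: TM7SF2 without library 1 of shCTRL with IFNγ or library 3 of shINCA1 without IFNγ, SCD without library 1 of shINCA1 without IFNγ, FADS1 without library 1 of any group but shINCA1 with IFNγ and ABCA1 without library 3 of shINCA1 without IFNγ (adjusted p 0.0186 to 0.0495 by edgeR).

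SQLE was among the genes that fell in shCTRL cells. The SQLE libraries of shCTRL cells were at 70.9, 67.7 and 68.8 CPM with IFNγ, against 81.2, 81.5 and 77.8 CPM without it, with no overlap. It fell by 0.21 ± 0.03 (edgeR, adjusted p = 4.68e-04). INSIG1 measured 45.5, 46.7 and 42.7 CPM with IFNγ, against 49.8, 53.0 and 53.5 CPM without it, and fell by 0.21 ± 0.04 (adjusted p = 0.00552). SREBF1 measured 66.3, 67.9 and 65.2 CPM with IFNγ, against 85.4, 76.9 and 80.1 CPM without it, and fell by 0.28 ± 0.06 (adjusted p = 0.00601). For both genes the IFNγ libraries lay below the others.

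IDI1 and FADS2 were at the edge of the test in shCTRL cells. IDI1 measured 69.1, 70.0 and 72.7 CPM with IFNγ, against 73.5, 78.0 and 80.7 CPM without it, and fell by 0.13 ± 0.04 (edgeR, adjusted p = 0.0328). FADS2 measured 31.2, 33.8 and 30.2 CPM with IFNγ, against 34.3, 35.6 and 35.7 CPM without it, and fell by 0.15 ± 0.05 (adjusted p = 0.0483). The IDI1 call was lost on leaving out library 2 or 3 of shCTRL without IFNγ, library 1 or 2 of shCTRL with IFNγ or library 3 of shINCA1 with IFNγ (adjusted p 0.0504 to 0.126), without a filter (0.0522) and with only the 2 groups compared (0.0878). The FADS2 call was lost on leaving out library 2 or 3 of shCTRL without IFNγ, library 1 or 3 of shCTRL with IFNγ, library 2 of shINCA1 without IFNγ or library 1 or 3 of shINCA1 with IFNγ (adjusted p 0.0531 to 0.177), without a filter, by limma-voom, with a replicate block and with only the 2 groups compared (adjusted p 0.0520 to 0.113).

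The 2 members that rose with IFNγ in shCTRL cells were both genes of sterol movement. NPC1 measured 35.7, 36.6 and 34.2 CPM with IFNγ, against 28.4, 29.4 and 29.1 CPM without it, and rose by 0.29 ± 0.05 (edgeR, adjusted p = 0.00199). STARD4 measured 43.0, 41.8 and 42.8 CPM with IFNγ, against 33.9, 36.5 and 38.1 CPM without it, and rose by 0.23 ± 0.05 (adjusted p = 0.0102). The libraries did not overlap for either, and the STARD4 call was lost without library 1 of shCTRL without IFNγ (adjusted p = 0.0621) or library 1 of shCTRL with IFNγ (adjusted p = 0.0510). In shINCA1 cells the same genes did not pass the threshold, with responses of 0.13 ± 0.05 for NPC1, 0.17 ± 0.06 for STARD4, -0.20 ± 0.06 for SREBF1, -0.16 ± 0.05 for FADS2 and 0.02 ± 0.03 for SQLE. SREBF1 and FADS2 did pass there with other scalings and filters and, by edgeR, on leaving out library 2 of shINCA1 without IFNγ (adjusted p = 0.0344 and 0.0435), SREBF1 also without library 2 of shINCA1 with IFNγ (0.0322) and FADS2 without library 2 or 3 of shCTRL with IFNγ (0.0268 and 0.0484).

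**Figure D5:**
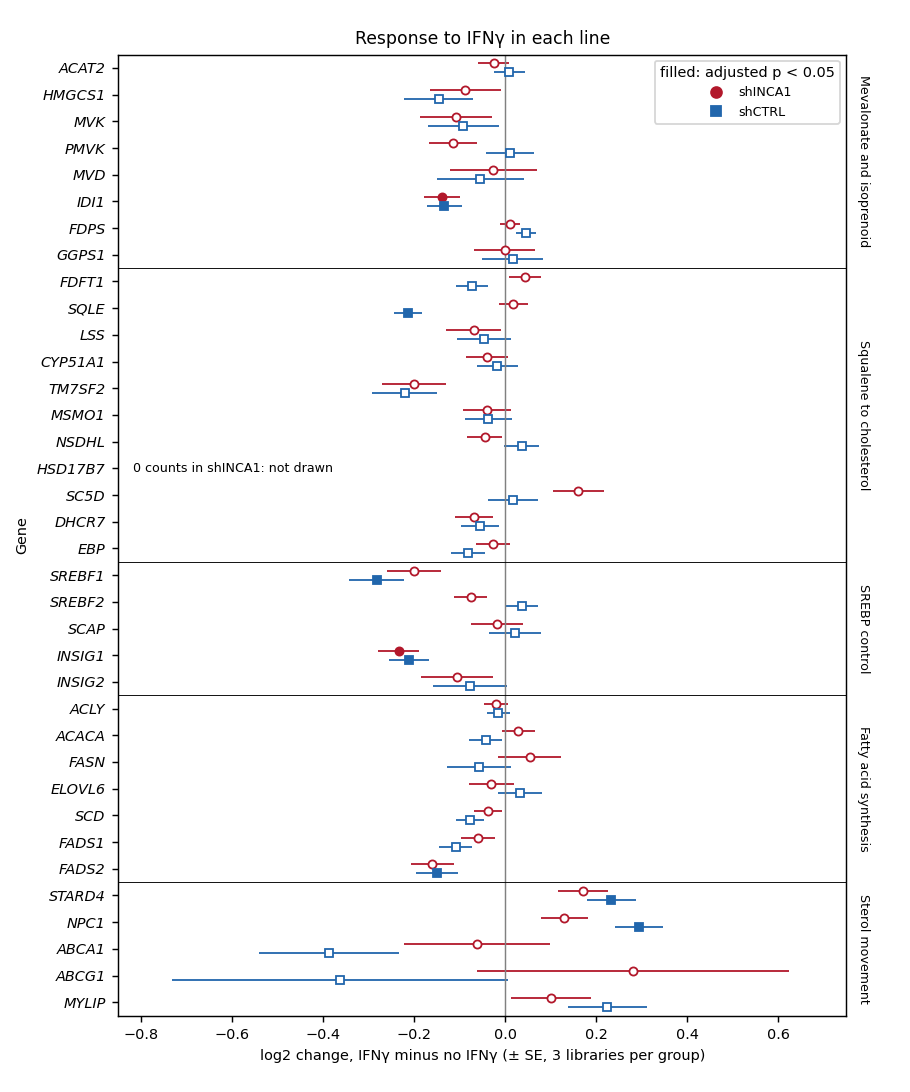
The log2 response of each member to IFNγ (horizontal axis, ± SE from the edgeR fit, 3 libraries a group), for shINCA1 cells as circles and shCTRL cells as squares, filled where the adjusted p was under 0.05. INSIG1 and IDI1 are filled in both lines, and SQLE lies at 0.02 in shINCA1 cells against -0.21 in shCTRL cells.

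The responses of the lines were set against each other in the same fit. SQLE was the only member whose responses differed past the threshold, by 0.23 ± 0.04 (edgeR, adjusted p = 0.0229), which is 1 member higher, against 0.615% of all genes tested, and 0 lower, against 1.1%. The call was lost without a filter on low counts (adjusted p = 0.0611) and on leaving out any of 7 libraries, namely library 2 of shCTRL without IFNγ, libraries 2 or 3 of shCTRL with IFNγ, libraries 2 or 3 of shINCA1 without IFNγ and libraries 1 or 3 of shINCA1 with IFNγ (adjusted p 0.0507 to 0.0897). At an unadjusted p under 0.05 the counts were 2 members higher and 1 lower, and DESeq2 and limma-voom likewise called 1 higher and 0 lower. Apart from SQLE, the members called in shCTRL cells alone had 95% intervals of the difference of -0.33 to 0.01 for NPC1, -0.24 to 0.12 for STARD4, -0.11 to 0.28 for SREBF1 and -0.16 to 0.14 for FADS2. NPC1 was the member counted as lower at an unadjusted p under 0.05 (edgeR, adjusted p = 0.429), and its interval reaches past 0 because the intervals, with 8 degrees of freedom, are wider than the test. The interval was -0.17 to 0.12 for INSIG1 and -0.19 to 0.31 for HMGCS1.

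Other genes of these pathways were followed by lists. Of 19 tested genes of fatty acid activation, elongation and supply, 6 were higher and 5 lower in shINCA1 than in shCTRL cells in either condition. These are 57.9% of the list, near the 58.9% of all genes called with IFNγ and the 56.9% called without it. ELOVL5, an elongase of polyunsaturated fatty acids, was lower, with a log2 difference of -1.04 ± 0.03 with IFNγ and -0.94 ± 0.03 without it, and so was ELOVL2, another such elongase (-4.14 ± 0.21 with IFNγ and -3.64 ± 0.19 without it). SCD5, a stearoyl desaturase, was higher by 1.37 ± 0.06 with IFNγ and 1.28 ± 0.06 without it and the elongase ELOVL7 by 1.89 ± 0.12 with IFNγ and 2.09 ± 0.12 without it. Of 9 tested genes that use isoprenoids, 3 were higher and 5 lower with IFNγ (88.9% called) and 2 higher and 3 lower without it (55.6% called), among them NUS1 of dolichol synthesis, which was lower, with a log2 difference of -0.62 ± 0.04 with IFNγ and -0.63 ± 0.04 without it. Of 7 lipid droplet genes 2 were higher and 4 lower in either condition (85.7% called), and PLIN3, a coat protein of droplets, was lower, with a log2 difference of -0.75 ± 0.04 with IFNγ and -0.73 ± 0.04 without it.

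Of 7 genes that process SREBPs or turn them over, 1 was higher and 3 were lower between the lines in either condition, and these 57.1% are again near the share of all genes. SEC24D, part of the coat of vesicles that leave the endoplasmic reticulum, was lower, with a log2 difference of -0.71 ± 0.06 with IFNγ and -0.69 ± 0.06 without it. Of 15 tested genes of sterol transport and storage 2 were higher and 4 lower in either condition, which is 40% against 58.9% of all genes with IFNγ and 56.9% without it. NPC2, the lysosomal partner of NPC1, was higher by 0.43 ± 0.03 with IFNγ and 0.65 ± 0.03 without it.

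After IFNγ 2 of these 15 sterol transport genes rose in each line and none fell in either, while at an unadjusted p under 0.05 none fell in shINCA1 cells and 2 fell in shCTRL cells, all by edgeR. Of all genes 6.13% rose and 2.95% fell in shINCA1 cells, and 9.72% rose and 7.51% fell in shCTRL cells, so that counts this small on 15 genes are near the background. SOAT1, which esterifies cholesterol for storage, rose by 0.54 ± 0.04 in shINCA1 cells and by 0.55 ± 0.04 in shCTRL cells. NPC2 rose by 0.14 ± 0.03 in shINCA1 cells and by 0.36 ± 0.03 in shCTRL cells, and these responses differed by -0.23 ± 0.05 (edgeR, adjusted p = 0.0428). Of the 19 tested genes of fatty acid activation, elongation and supply, 1 rose and 1 fell in shINCA1 cells (10.5% called, against 9.08% of all genes). In shCTRL cells 3 of them rose and 2 fell (26.3% called, against 17.2% of all genes), again by edgeR. ACSL5, a gene of this list that activates fatty acids, rose by 3.13 ± 0.19 in shINCA1 cells and by 3.11 ± 0.19 in shCTRL cells. CH25H, which makes an oxysterol that blocks SREBP processing and is known as an interferon target in macrophages, was under the filter on low counts and was not tested.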

How the data were processed

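Poly(A) RNA libraries of 12 U251 samples were made with a stranded kit, per the labels' protocols. The table deposited by the authors gives, for each symbol and library, an estimated count in whole numbers, not scaled to a common library total. The submitters' processing notes name FastQC, Trimmomatic, HISAT2, StringTie and the build hg19. Versions, annotation, how reads were counted and whether strand was used are not stated in the sources at hand. The smallest values often fall at 3 (5790 times, against 2186 at 2 and 1317 at 4) and likewise at 6 (4120) and 9 (2388), so 1 fragment may stand for about 3 counts. All low counts and the floor of 3 counts a library may then rest on fewer fragments than printed, and the effect on the tests was not tested. A floor covers counting error alone.

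Groups follow the titles and treatment labels. The fit used edgeR 4.0.16 in R 4.3.3 (limma 3.58.1): filterByExpr on the 4 groups left 15769 of 27685 genes with 99.986% of the counts, followed by TMM factors, 1 coefficient a group and two-sided quasi-likelihood tests. The common biological coefficient of variation was 10.6%. SEs are the log2 difference divided by the square root of F, and 95% intervals use a t distribution with 8 degrees of freedom, which is wider than the test itself, since edgeR adds degrees of freedom from the other genes. Library depth was 46525032 to 66242859 counts. Replicates correlated at 0.983 to 0.987 across genes, and no library was a copy of another.

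The 36 members and the other gene lists were chosen with earlier results of these data known, and the lists of neighbours were added for the same reason as a description. Values for each library are given for HMGCS1, SQLE and MSMO1, for the members past the threshold in order of p (up to 12 a comparison) and for those past it by 2-fold, and up to 4 genes a list are named by p. A ranking of genes most like HMGCS1 over the 12 samples was planned and not run, because the libraries fall into separate clusters by line. Alternatives were DESeq2 size factors, upper-quartile factors, other filters, the DESeq2 1.42.0 Wald test, limma-voom, a replicate block, fits of the compared groups only, a threshold of 0.01 and leaving out each library. Simulated counts were drawn with gene-wise dispersions and, separately, with the common dispersion for every gene. With gene-wise dispersions, for the IFNγ response in shINCA1 cells (15508 genes tested) 51 of 100 genes changed by 0.5 on the log2 scale and 75 of 100 changed by 1 were recovered, with 5 false calls, and for the line difference without IFNγ (15516 genes tested) 56 and 74 of 100, with 8 false calls. With the common dispersion 43 and 90 of 100 were recovered for the IFNγ response (15417 genes tested, 13 false calls) and 49 and 90 for the line difference (15420 genes tested, 9 false calls). The common dispersion was run first and missed an aim of recovering most of the changed genes at each size, after which gene-wise dispersions were added. Only 100 genes were changed at each size, whereas 56.9% of all genes tested were called between the lines without IFNγ. The simulated recovery and false calls therefore need not hold for the line difference. Chromosomes and gene order come from a GRCh38 annotation matched by symbol for 14692 of the genes tested and all members, although the counts were made on hg19.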

Additional observations from a re-analysis of the deposited data

Results flagged for a closer look

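The response of SQLE to IFNγ differed between the lines by 0.23 on the log2 scale in a test of the difference itself (edgeR's quasi-likelihood test with all 12 libraries, adjusted p = 0.0229). The response was 0.02 in shINCA1 cells and -0.21 in shCTRL cells. Each of 7 single libraries, left out in turn, took the adjusted p over 0.05, with differences of 0.21 to 0.25 in those fits. No group had the 4 samples that a search for single deviating libraries would need.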

How the results depend on the processing

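No member that passed the threshold in either of the 2 fits compared changed direction under any alternative run. Sign changes of values past the threshold in neither fit were not counted. Between the lines, members called lower stayed at 19 to 21 under every alternative, and with all libraries kept members called higher were 7 or 8 with IFNγ and 4 to 6 without it, where they went to 3 at an adjusted p of 0.01. IFNγ responses depended more on the settings. In shINCA1 cells members called lower numbered 2, but 4 with DESeq2 size factors, upper-quartile factors, no low-count filter, a filter of 5 CPM in 3 samples or the DESeq2 Wald test, and 1 with only the 2 groups compared or at an adjusted p of 0.01. All genes called lower there numbered 465, but 733 with upper-quartile factors, 735 with the DESeq2 Wald test and 195 at 0.01. In shCTRL cells members called lower numbered 5, but 10 with upper-quartile factors 4 by limma-voom or with only the 2 groups compared, and 3 without a filter or at 0.01, members called higher 2, but 1 at 0.01, and all genes called lower 1184, but 1970 with upper-quartile factors and 605 at 0.01. For the difference of responses the 1 member called was lost without a filter and at 0.01 (0 members), and all genes called higher and lower numbered 97 and 173, but 176 and 331 with the DESeq2 Wald test and 42 and 71 at 0.01. The cause of these changes was not tested, other than the stricter threshold itself and the fewer samples of the fits of the groups compared.

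On leaving out single libraries, members called higher and lower ranged over 0 to 0 and 1 to 3 for IFNγ in shINCA1 cells, 1 to 2 and 3 to 7 for IFNγ in shCTRL cells, 6 to 8 and 19 to 20 between the lines with IFNγ, 3 to 5 and 19 to 21 between them without it, and 0 to 1 and 0 to 0 for the difference of responses. All genes called higher and lower ranged over 756 to 954 and 281 to 481, 1171 to 1646 and 849 to 1341, 4177 to 4598 and 4352 to 4837, 3858 to 4458 and 4326 to 4770, and 57 to 92 and 95 to 154, in the same order of comparisons. The lowest counts of genes called lower after IFNγ in shINCA1 cells (281) and of the difference of responses (95) came without library 3 of shINCA1 without IFNγ, and the lowest of the difference called higher (57) without library 3 of shINCA1 with IFNγ.

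With the replicate number as a block, members called higher and lower were 0 and 2 for IFNγ in shINCA1 cells, 2 and 5 for IFNγ in shCTRL cells, 7 and 20 between the lines with IFNγ, 4 and 20 without it, and 1 and 0 for the difference. FADS2 lost its 3 calls under the block (adjusted p 0.0751, 0.0686 and 0.0517) and ABCA1 gained one for IFNγ in shCTRL cells (adjusted p = 0.0270). The labels do not say that a number marks a shared culture or day. In deviations from the group means, libraries of the same number in different groups correlated at -0.04 to 0.07 (median 0.02). Those of other numbers correlated at -0.07 to 0.05 (median -0.01), and 8 of 12 libraries correlated best with their own number. Whether the numbers mark pairs was not tested, and the block fit allows for it. Depth limits ABCG1 (17 to 78 counts a library) most.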
